A study of Mus musculus with 6 samples.

Results

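The MCM helicase and its loaders were followed through the loss of Rb, as 10 genes of the 13731 that could be tested: Mcm2, Mcm3, Mcm4, Mcm5, Mcm6, Mcm7, Mcm10, Cdt1, Cdc6 and Cdc45. They were chosen by name and function, and 11 of the 39429 probes on the array carry a RefSeq accession of one of them, with 2 probes for Cdc6 and 1 for every other gene. The cells were primary prostate cells of mice, p53-/- in every culture, whose Rb alleles carry loxP sites. The 3 Rb intact cultures (p53-/- Rbf/f) received an adenovirus with lacZ and the 3 Rb deleted cultures (p53-/- Rb∆f/∆f) an adenovirus with Cre, and RNA was taken 48 hours after infection. Both groups grew without FBS, with bFGF and bEGF. Virus and Rb status therefore cannot be told apart, and no label gives the share of infected cells or the age of the mice. The series describes independent experiments without saying which cultures share an animal, so p-values measure the spread between these cultures.

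Before a cell copies its DNA, the origin recognition complex and Cdc6 sit on the origin, and Cdt1 brings in the ring of Mcm2 to Mcm7 that will unwind the helix. In S phase this ring becomes an active helicase once Cdc45 and the GINS complex join it, with Mcm10 needed to start unwinding. Most of these genes are textbook targets of E2F transcription factors, which the retinoblastoma protein holds in check, so their transcripts are low in resting cells and high from late G1 onward.

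Each array measured Cy3-labelled RNA of 1 culture in 1 colour. From 59.0% to 63.3% of the probes on an array were well above background, and no spot was saturated. Precision is limited by there being 3 arrays a group. A level is the log2 intensity of a probe after subtracting the 75th percentile of its array. A difference is the mean level after Rb deletion minus that of the intact group, in log2 units with the standard error (SE) of the limma fit. Rose or fell means an adjusted p under 0.05 over all genes. The level of Rb1 itself was -1.15, -1.13 and -1.16 in Rb intact 1 to 3 and -3.12, -3.11 and -3.07 in Rb deleted 1 to 3, lower in every Cre culture. Where the Rb1 probe lies relative to the deleted part was not known here. Slide 1 carried the 3 Rb intact arrays together with Rb deleted 1, while Rb deleted 2 and 3 were on slide 2. Rb intact 1 correlated with Rb intact 2 and 3 at 0.9928 and 0.9930 over 23019 probes, and those arrays with each other at 0.9978. Each member or list result below that rests on Rb intact 1 is therefore given with and without it. Differences of single list genes are given over all arrays only.

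The labelled tissue was checked against marker genes. Of 11 prostate epithelial markers, 5 were well above background on all 6 arrays (Krt14, Krt8, Krt18 and Trp63 among them), while the epithelial adhesion genes Epcam and Cdh1 and the prostate gene Hoxb13 were not well above background on any. Of 8 mesenchymal markers, 7 were well above background on all 6 arrays, the collagen genes Col1a1 and Col1a2 and the matrix gene Dcn among them. Of 5 leukocyte genes on the array, 2 were well above background on all 6 arrays and 2, Ptprc among them, on none. Of 5 endothelial genes, 3 were well above background on all 6 arrays. The log2 of the summed relative signal of the measured mesenchymal markers was 8.44 to 8.49 in Rb intact and 8.32 to 8.44 in Rb deleted, and that of the epithelial ones 3.67 to 3.80 and 3.43 to 3.63. For leukocyte markers it was 1.06 to 2.55 and 1.78 to 2.01, and for endothelial ones 1.93 to 1.98 and 1.72 to 2.00. The leukocyte overlap rests on Rb intact 1 at 1.06. Rb intact 2 and 3, at 2.51 and 2.55, lay above every Rb deleted array. Among these markers Trp63, Acta2 and Vwf fell and none rose, when 10.8% of all tested genes fell and 9.66% rose. Trp63 was near the threshold (limma adjusted p = 0.0476), and no epithelial marker fell with median scaling or with slide as a block. Vwf was well above background on only 1 of the 3 Rb deleted arrays. The part of these shifts in the results was not tested. In bulk RNA, fewer cells in a given cycle phase and less RNA per cell cannot be told apart.

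All 10 genes were measured well above background on all 6 arrays, at raw intensities from 799 to 157511. After Rb deletion 7 of the 10 rose and none fell: Mcm2, Mcm5, Mcm6, Mcm7, Mcm10, Cdt1 and Cdc45. Among all tested genes 20.4% changed: 9.66% rose and 10.8% fell. Differences ran from 0.17 for Cdc6 to 0.52 for Cdc45, or 1.12-fold to 1.43-fold, with a median of 0.40 against 0.01 over all tested genes. For 9 of the 10, every Rb deleted array lay above every Rb intact array, as it did for 23.7% of tested genes (45.2% had no overlap in either direction). Cdc6 was the exception. Placed among the differences of all tested genes, those of the members lay between the percentile 74.4 (Cdc6) and the percentile 96.2 (Cdc45).

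**Figure D1:**
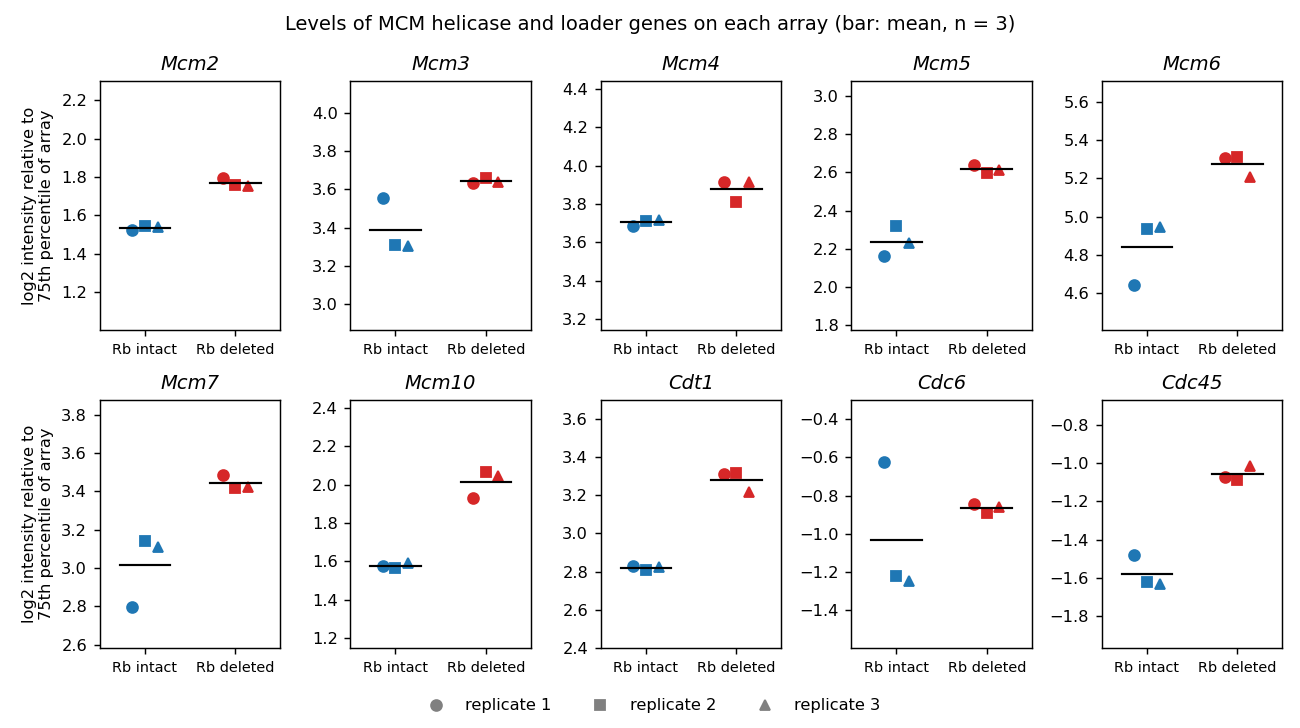
Log2 intensity minus the 75th percentile of the array (vertical axis; every panel spans the same height) for each gene on the 3 Rb intact (blue) and 3 Rb deleted (red) arrays, with bars at the group means and symbols for the replicate number. Red points lie above all blue points in every panel except Cdc6, where Rb intact 1 at -0.63 lies above all 3 Rb deleted arrays.

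The promoters of members are shown where letters of the E2F type occur, since these genes are known as E2F targets. The words searched, on both strands, were TTTCCCGC, TTTCGCGC, TTTGCCGC and TTTGGCGC, in RefSeq windows of 300 bases (250 before and 50 after the annotated start, build GRCm38.p6). Windows were found for 9 of the 10 members, with 2 starts for Mcm7, and Mcm4 has no entry. Matches were present for 6 of the 9, or 66.7%: Mcm3, Mcm5, Mcm6, Mcm7, Cdt1 and Cdc6. They were present in 2.26% of all 32851 windows and for 4.46% of the 10928 tested genes with a window. In Mcm5 and in Mcm6 a pair of words on opposite strands overlaps, 153 and 149 bases before the start of Mcm5 and 110 and 106 bases before that of Mcm6. Capitals mark the matched letters, and each stretch is read 5′ to 3′ along the gene's strand.
Mcm5, upstream, chr8:75109302-75109421, plus strand: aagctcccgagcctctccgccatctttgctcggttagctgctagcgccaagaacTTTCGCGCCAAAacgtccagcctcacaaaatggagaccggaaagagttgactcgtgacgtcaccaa
Mcm6, upstream, chr1:128359721-128359840, minus strand: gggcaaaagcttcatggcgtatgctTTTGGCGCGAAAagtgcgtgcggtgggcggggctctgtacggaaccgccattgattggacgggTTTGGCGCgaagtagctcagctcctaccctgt
Mcm7, upstream, chr5:138171985-138172104, minus strand: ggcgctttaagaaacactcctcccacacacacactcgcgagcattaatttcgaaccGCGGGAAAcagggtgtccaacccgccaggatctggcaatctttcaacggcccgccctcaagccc
Mcm7, just after the start, chr5:138171849-138171878, minus strand: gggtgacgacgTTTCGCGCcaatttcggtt
Mcm3, just after the start, chr1:20820266-20820295, minus strand: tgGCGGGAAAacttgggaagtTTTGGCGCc
Cdt1, just after the start, chr8:122568035-122568064, plus strand: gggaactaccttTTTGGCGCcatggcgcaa
Cdc6, upstream, chr11:98907957-98908076, plus strand: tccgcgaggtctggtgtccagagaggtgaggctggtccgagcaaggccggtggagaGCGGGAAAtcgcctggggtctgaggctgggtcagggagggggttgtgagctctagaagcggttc
The match is a description of letters, not of binding. Cdc45, Mcm10 and Mcm2, the members whose windows held no match, rose. The Mcm10 window ends in TTTGGCG, the beginning of the searched word TTTGGCGC. Whether a match crosses that edge is not known here. Of the 6 with a match, Mcm5, Mcm6, Mcm7 and Cdt1 rose, and Mcm3 and Cdc6 did not pass.

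**Figure D2:**
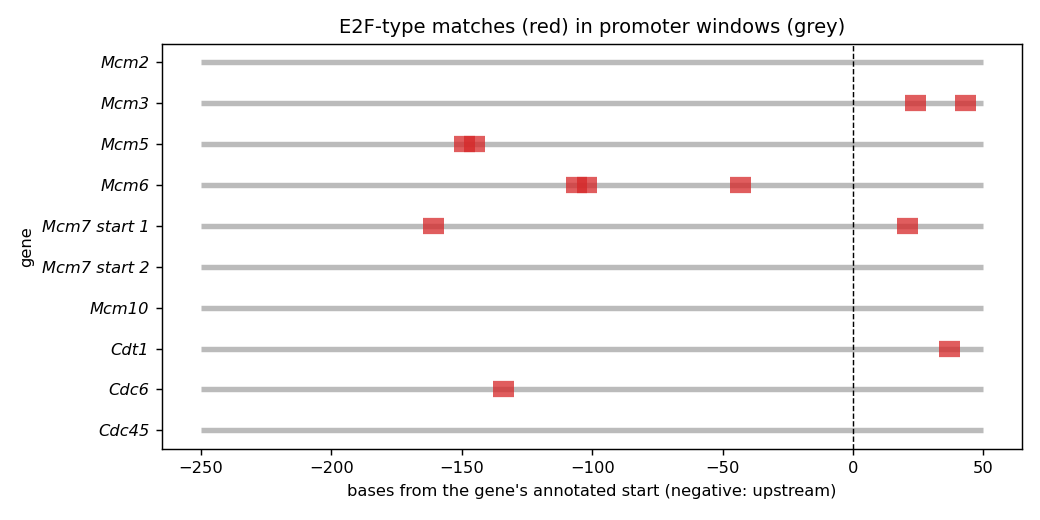
Position of E2F-type matches (red) along the promoter windows (grey) of 9 members, in bases from the annotated start (horizontal axis). The overlapping pairs of Mcm5 and Mcm6 lie upstream, at 153 and 110 bases before the start, and the matches of Mcm3 and Cdt1 lie after it.

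Of the ring subunits Mcm2 to Mcm7, 4 of 6 rose, and the 6 differences ran from 0.17 to 0.43 with a median of 0.32. Mcm2, the subunit that also binds histones, stood at 1.52, 1.54 and 1.54 in Rb intact 1 to 3 and at 1.79, 1.76 and 1.75 in Rb deleted 1 to 3. Mcm2 rose by 0.23 ± 0.05 (SE; 1.18-fold, limma adjusted p = 0.0200). It was the smallest rise among the 7 that passed, beside a spread of 0.01 (SD, n = 3) among intact and 0.02 (SD, n = 3) among deleted arrays.

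Mcm5, which forms the gate of the ring with Mcm2, stood at 2.16, 2.32 and 2.23 in Rb intact and at 2.64, 2.60 and 2.61 in Rb deleted. Mcm5 rose by 0.38 ± 0.06 (SE; 1.30-fold, limma adjusted p = 0.00831). The lowest Rb deleted array lay well above the highest Rb intact array, and no single array was needed for the call.

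The level of Mcm6 was 4.64, 4.94 and 4.94 in Rb intact 1 to 3 and 5.31, 5.31 and 5.21 in Rb deleted 1 to 3. Another subunit of the ring, Mcm7, gave 2.80, 3.14 and 3.11 in Rb intact and 3.49, 3.42 and 3.42 in Rb deleted. For both genes Rb intact 1 was the lowest array, and the groups did not overlap. Mcm6 rose by 0.43 ± 0.10 (SE; 1.35-fold, limma adjusted p = 0.0250). Mcm7 rose by 0.43 ± 0.10 (SE; 1.34-fold, limma adjusted p = 0.0310). Without the low Rb intact 1 the differences were 0.34 for Mcm6 and 0.32 for Mcm7, still past the threshold with adjusted p of 0.00612 and 0.00474.

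Mcm3 and Mcm4 were the ring subunits that did not pass the threshold. The level of Mcm3 was 3.56, 3.31 and 3.30 in Rb intact and 3.63, 3.66 and 3.64 in Rb deleted, with Rb intact 1 nearest to the deleted group. Its difference was 0.25 ± 0.08 (SE; 95% interval 0.06 to 0.45, limma adjusted p = 0.0760). Mcm4, a subunit of the ring's catalytic core, gave 3.69, 3.71 and 3.72 in Rb intact and 3.91, 3.81 and 3.91 in Rb deleted, a difference of 0.17 ± 0.05 (SE; 95% interval 0.04 to 0.31, adjusted p = 0.0724). Neither gene's groups overlapped, so these values are small differences that missed the threshold and do not show equal levels.

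Cdt1, which delivers the ring to the origin and is blocked by geminin, rose with the smallest p of the 10. Its level was 2.83, 2.81 and 2.82 in Rb intact and 3.31, 3.32 and 3.22 in Rb deleted. Cdt1 rose by 0.46 ± 0.05 (SE; 95% interval 0.33 to 0.59, 1.38-fold, limma adjusted p = 0.00268). The Rb intact arrays spread by only 0.01 (SD, n = 3), and the nearest Rb deleted array stood clearly apart from them.

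Cdc6, the ATPase that loads the ring together with Cdt1, was the weakest and least certain member. Its brighter probe, A_66_P131979, gave -0.63, -1.22 and -1.25 in Rb intact and -0.84, -0.89 and -0.86 in Rb deleted. The difference was 0.17 ± 0.17 (SE; 95% interval -0.24 to 0.57, limma adjusted p = 0.514). Rb intact 1 lay 0.61 above the mean of Rb intact 2 and 3, whereas the whole range of the Rb deleted arrays was 0.05. A second probe of the same RefSeq transcript, A_52_P219473, gave -1.99, -2.25 and -2.28 in Rb intact and -1.91, -1.93 and -1.94 in Rb deleted, so Rb intact 1 was the highest of its group there too. On that probe the groups did not overlap, and its difference was 0.25 ± 0.09 (SE; limma adjusted p = 0.117 over all passing probes, of which 7.1% rose), and without Rb intact 1 it was 0.34 (limma adjusted p = 0.00461). Without Rb intact 1 the brighter Cdc6 probe differed by 0.37 (adjusted p = 0.00240), and without Rb intact 2 or 3 by 0.07 and 0.06 (adjusted p = 0.810 and 0.847). The value for Cdc6 is therefore set by which Rb intact arrays enter.

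Cdc45, which turns the loaded ring into a working helicase, had the largest difference. It stood at -1.48, -1.62 and -1.63 in Rb intact and at -1.07, -1.09 and -1.02 in Rb deleted. Cdc45 rose by 0.52 ± 0.06 (SE; 95% interval 0.37 to 0.67, 1.43-fold, limma adjusted p = 0.00328). Every Rb deleted array lay above every Rb intact array, although Rb intact 1 was again the highest of its group.

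Mcm10, a factor of helicase activation that is not part of the ring, gave 1.58, 1.56 and 1.59 in Rb intact and 1.93, 2.06 and 2.05 in Rb deleted. Mcm10 rose by 0.44 ± 0.06 (SE; 95% interval 0.30 to 0.58, 1.35-fold, limma adjusted p = 0.00443). Here Rb deleted 1 was the lowest of the deleted group and the Rb intact arrays were nearly equal. An exact permutation test over arrays (two-sided) gave 0.1 for 9 members, the lowest value possible with 3 against 3, and 0.4 for Cdc6.

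The ring genes and the other members were also set against each other within each array, which removes the scaling. The mean level of Mcm2 to Mcm7 was 3.12 ± 0.05 (SD, n = 3) with Rb and 3.44 ± 0.02 (SD, n = 3) without it. Cdt1 minus that mean was -0.35 to -0.23 in Rb intact and -0.21 to -0.11 in Rb deleted, so Cdt1 stood higher relative to the ring on every deleted array. Cdc45 minus the mean was -4.78 to -4.54 and -4.53 to -4.44, with ranges that almost touched. The nearest intact array was Rb intact 1 at -4.54, against -4.78 and -4.77 for Rb intact 2 and 3. Mcm10 minus the mean was -1.60 to -1.48 and -1.53 to -1.36, which overlap. That overlap rests on both Rb intact 1 and Rb deleted 1. Rb intact 1 stood at -1.48, against -1.60 and -1.55 for Rb intact 2 and 3. Rb deleted 1, the deleted array on the slide of the intact ones, stood at -1.53. Rb deleted 2 and 3 stood at -1.36 and -1.38. Cdc6 minus the mean was -4.39 to -3.69 in Rb intact and -4.32 to -4.29 in Rb deleted, with a lower mean after deletion (-4.30 against -4.15) and ranges that overlap. Both rest on Rb intact 1 at -3.69. Rb intact 2 and 3, at -4.38 and -4.39, lay below every Rb deleted array. No test was run on these contrasts, which use the same arrays as the differences above.

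The members did not share 1 pattern among the Rb intact arrays. Rb intact 1 exceeded the mean of Rb intact 2 and 3 by 0.61 for Cdc6, 0.25 for Mcm3 and 0.15 for Cdc45, and lay below it for Mcm7 (-0.33), Mcm6 (-0.30) and Mcm5 (-0.11). For Mcm2, Mcm4, Mcm10 and Cdt1 the gap was between -0.03 and 0.01. Rb intact 2 and 3 differed from each other by at most 0.09, for Mcm5. Within Rb deleted, the SD of the 10 genes ran from 0.01 to 0.07, against 0.01 to 0.35 within Rb intact.

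**Figure D3:**
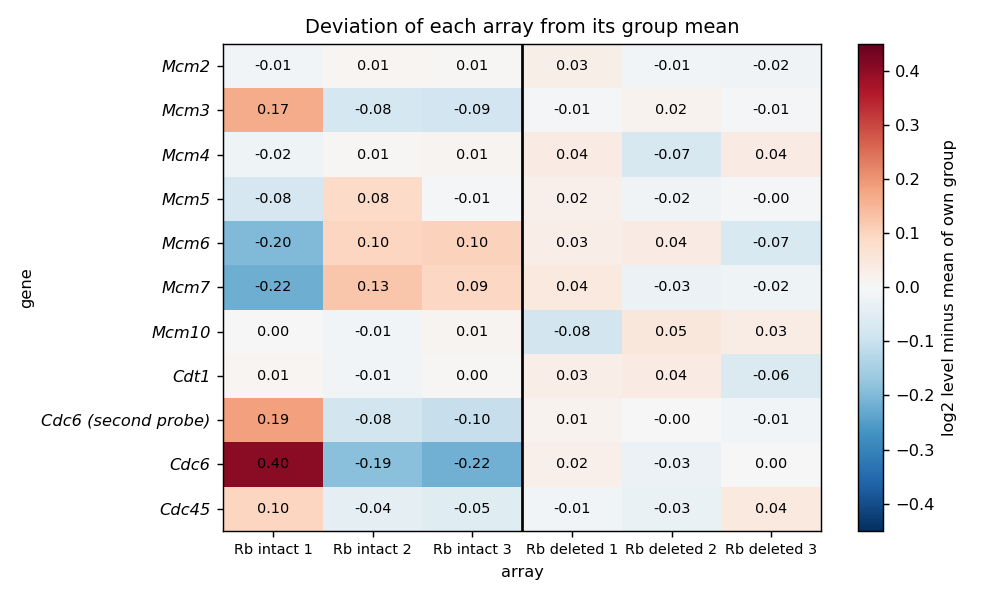
Log2 level of each probe on each array minus the mean of its own group, for the 11 probes (rows) and 6 arrays (columns), with the value printed in each cell. Rb intact 1 is high for both Cdc6 probes, Mcm3 and Cdc45 and low for Mcm6 and Mcm7, while the Rb deleted columns are pale throughout.

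Leaving out arrays in turn separated the calls that needed no single array from the others. It leaves the uneven split of the groups over the slides in place. Without Rb intact 1 all 10 members rose, Mcm3 by 0.34, Mcm4 by 0.16 and Cdc6 by 0.37 among them, when 19.1% of tested genes did. Leaving out Rb deleted 1, 2 or 3 left the same 4 members past the threshold each time, Mcm5, Mcm10, Cdt1 and Cdc45, when 5.9%, 3.33% and 3.48% of tested genes rose. These 4 kept their call whichever of the 6 arrays was left out. Without Rb intact 2 the call of Mcm2 was lost, and without Rb intact 3 those of Mcm2 and Mcm7, leaving 6 and 5 rises beside 5.43% and 5.48% of genes.

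On the first slide, the only one with both groups, Rb deleted 1 lay above all 3 Rb intact arrays for 9 of the 10 genes. This follows from the lack of overlap of these 9 over all 6 arrays. The share of all tested genes that did so on this slide was not counted. The member differences on the first slide ran from 0.19 (Cdc6) to 0.51 (Cdc45), with a median of 0.38, close in size to those over both slides. With slide as a block only Cdt1 rose, by 0.49 (limma adjusted p = 0.0406), when 1.46% of genes rose. Cdc45, Mcm10 and Mcm5 were next, with limma adjusted p of 0.0581, 0.0712 and 0.0892. Within slide 1, assuming for the single deleted array the spread of the intact ones, 0 members passed limma's threshold, and 0.197% of genes rose. The lowest adjusted p there was 0.145, for Cdt1, while the unadjusted p was under 0.05 for 5 members and for 1950 genes in all. With dim probes kept in the fit, 4 members rose, beside 2.93% of 20832 genes.

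**Figure D4:**
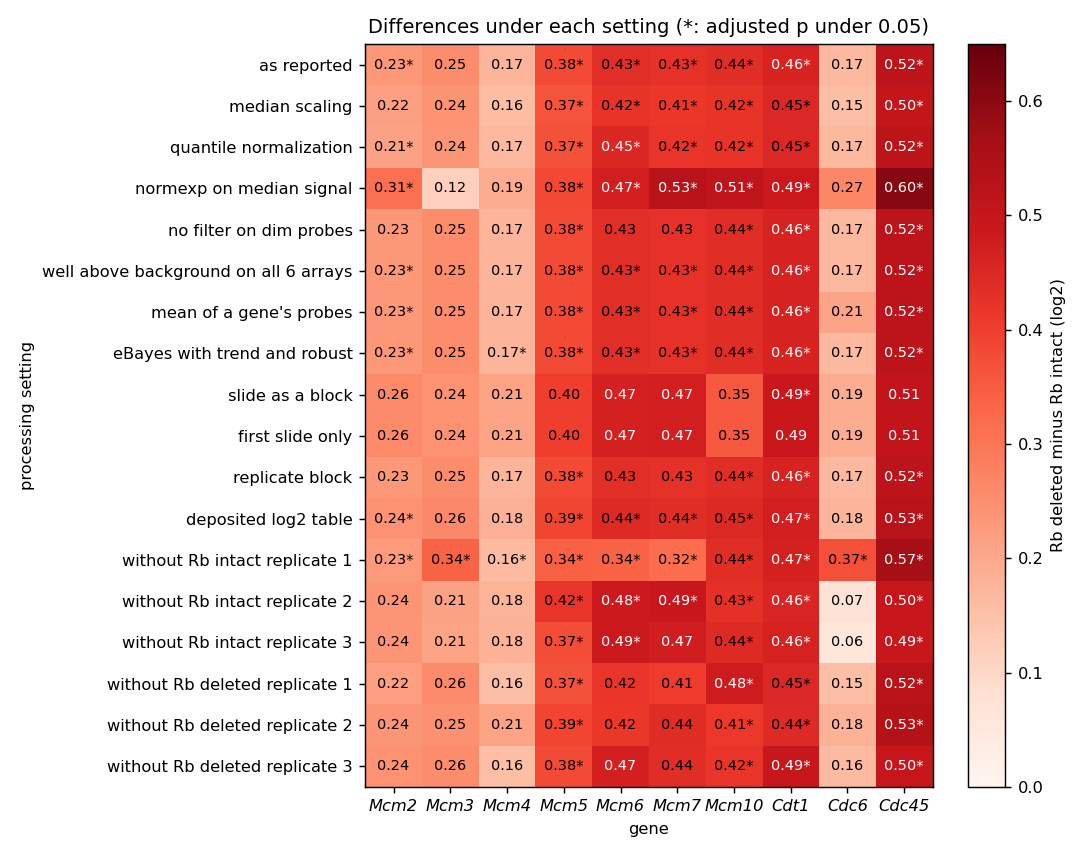
Difference between the groups (Rb deleted minus intact, log2, printed and shaded) of each member (columns) in the reported fit and 17 other settings (rows), with an asterisk where the limma adjusted p was under 0.05. Differences are positive in every cell, Cdt1 lacks its asterisk only in the fit of the first slide, and Cdc6 ranges from 0.06 to 0.37.

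Genes whose proteins work with the ring mostly gave positive differences, 24 of 27, beside 52.6% of all tested genes. Of these 27 measured licensing and helicase partner genes 12 rose and none fell, with a median of 0.27 beside 0.01 for all genes. Among all tested genes 9.66% rose and 10.8% fell. Gins1, a GINS subunit that joins the ring together with Cdc45, rose by 0.60 ± 0.10 (SE; limma adjusted p = 0.00839). Dtl, the adaptor of the ubiquitin ligase that destroys Cdt1 in S phase, rose by 0.43 ± 0.05, and Mtbp, which helps to recruit Cdc45, rose by 0.44 ± 0.06. Topbp1, a scaffold of helicase activation, rose by 0.38 ± 0.05, the MCM-binding protein gene Mcmbp by 0.30 ± 0.05 and Dbf4, the activator of the kinase that phosphorylates the ring, by 0.31 ± 0.06. Orc1, the origin subunit that varies with the cycle, rose by 0.43 ± 0.10, and Gmnn, which encodes geminin, the inhibitor of Cdt1, rose by 0.31 ± 0.08. The scaffold gene Cul4a of the same ubiquitin ligase had the largest p of the list, with a difference of 0.0029 ± 0.05 (adjusted p = 0.972). Without Rb intact 1, 15 of the 27 rose, beside 19.1% of all genes. Without Rb intact 2 or 3, 7 did in each case, beside 5.43% and 5.48%. Without Rb deleted 1, 2 or 3, 6, 4 and 4 did, beside 5.9%, 3.33% and 3.48%. With slide as a block 1 rose, beside 1.46% of all genes.

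Genes of the polymerases and the fork rose in 17 of 28 measured cases and fell in 1, with a median of 0.31. Among all tested genes 9.66% rose and 10.8% fell. Prim1, the catalytic primase subunit, rose by 0.48 ± 0.08 (SE; limma adjusted p = 0.00824), the chromatin assembly gene Chaf1b by 0.44 ± 0.06 and the clamp loader genes Rfc4 and Rfc2 by 0.42 ± 0.06 and 0.34 ± 0.05. Pola1, the catalytic subunit of the polymerase that starts each strand, rose by 0.31 ± 0.05, and the ligase gene Lig1 by 0.40 ± 0.05. The fall was that of Pold4, the small subunit of polymerase delta, which fell by 0.22 ± 0.06 (adjusted p = 0.0445). This call did not hold in 11 of 17 other settings, among them median scaling, slide as a block and the leaving out of any array except Rb intact 1. Fen1, which trims Okazaki fragments, gave 0.05 ± 0.14 (adjusted p = 0.817 by limma). Its Rb intact arrays spread by 0.29 (SD, n = 3) and its Rb deleted arrays by 0.05 (SD, n = 3). Without Rb intact 1, 25 rose and 1 fell, when 19.1% of all genes rose. Without Rb intact 2 or 3, 13 and 9 rose, beside 5.43% and 5.48% of all genes. Without Rb deleted 1, 2 or 3, 8, 6 and 6 did, beside 5.9%, 3.33% and 3.48%. With slide as a block none rose, when 1.46% of all genes did and 2744 genes had an unadjusted p under 0.05.

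Of 24 measured regulators of the G1/S switch 5 rose and Rb1 fell, with a median of 0.08. Cdkn1a, a Cdk inhibitor, rose by 0.84 ± 0.10 (SE; limma adjusted p = 0.00270), E2f2 and E2f7, an activating and a repressing E2F, by 0.69 ± 0.13 and 0.55 ± 0.14, the Rb relative Rbl1 by 0.31 ± 0.06 and the kinase gene Cdk2 by 0.24 ± 0.06. E2f1 gave 0.09 ± 0.11 (adjusted p = 0.564) and Ccne1, the G1/S cyclin, -0.0052 ± 0.13 (adjusted p = 0.981). Of 10 general proliferation markers 3 rose, Aurka by 0.42 ± 0.05, Top2a by 0.28 ± 0.06 and Ccnb1 by 0.28 ± 0.07 (adjusted p = 0.00260 to 0.0354), with a median of 0.25. Bub1, Cdc20 and Birc5 gave 0.21 ± 0.06, 0.25 ± 0.08 and 0.15 ± 0.05 (adjusted p = 0.0575 to 0.0951 by limma). Plk1 gave 0.08 ± 0.14 and Mki67 gave -0.14 ± 0.07 (adjusted p = 0.707 and 0.204 by limma). For Ccne1 and Plk1 the Rb intact arrays spread by 0.26 and 0.29 (SD), the Rb deleted ones by 0.09 and 0.02. Over the 6 fits that each left out 1 array, between 1 and 8 of the 24 and between 1 and 7 of the 10 rose. The highest counts were those without Rb intact 1. Among all genes, between 3.33% and 19.1% rose in these fits, the highest share also without Rb intact 1. In limma's fit with slide as a block, 1 of the 24 and 1 of the 10 rose, and on the first slide alone none did, where the unadjusted p was under 0.05 for 1950 genes in all. Over all genes, 9.66% rose in the fit of all arrays, 1.46% with slide as a block and 0.197% on the first slide. Whether the lists and the members differ from each other was not tested.

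**Figure D5:**
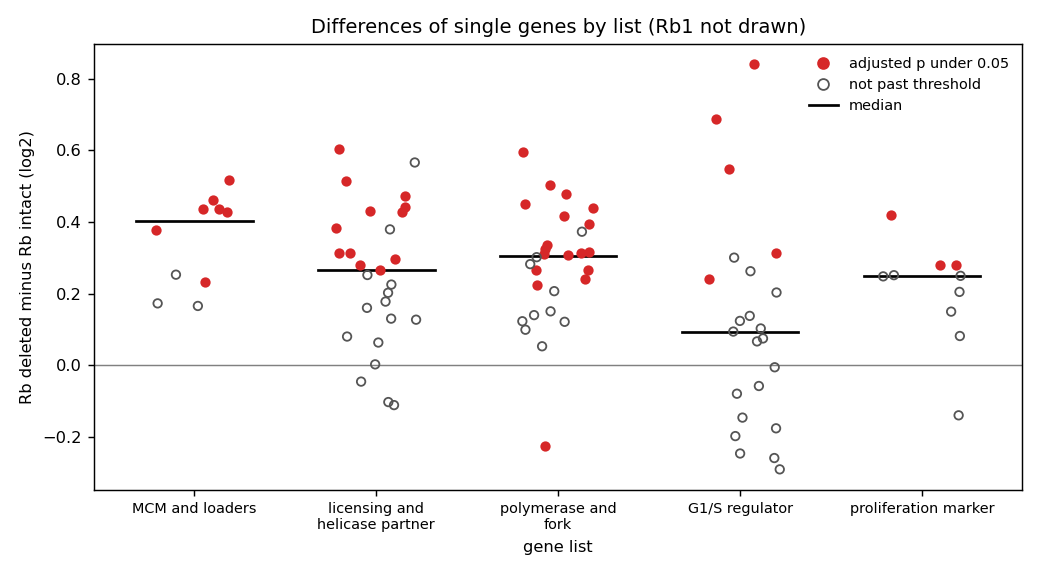
Difference Rb deleted minus Rb intact (log2, vertical axis) of each measured gene in the 10 members and 4 related lists, red where the limma adjusted p was under 0.05, with bars at the medians of the genes drawn; Rb1 is left out of the plot. All 10 members lie above 0, with a median of 0.40, and the G1/S regulators lie on both sides of 0.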

How the data were processed

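The members, gene lists and tests were chosen with earlier results of these data known. The scanner files hold intensity values that the authors made with Agilent's Feature Extraction software (per the file headers, version 11.0.1.1; 10.7.3.1 per the submitters' processing notes). The deposited spot flags are valued 0 or 1. The authors also deposited a table of log2 values; each column equalled the log2 processed intensity minus a constant within 0.01, its medians lay between -0.52 and -0.49, and no source used here gives its scaling.

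Here, the 43020 non-control spots per array were averaged to 39429 probes, without outlying spots, and log2 intensity was shifted by each array's 75th percentile. Probes well above background on all 3 arrays of a group (23051) were kept. RefSeq accessions, matched to a table of assembly GRCm38.p6, named 27427 probes and left 12002 unnamed. Each gene was represented by its brightest passing probe. The 13731 genes were tested with limma 3.58.1 in R 4.3.3 (lmFit, eBayes, Benjamini-Hochberg over all genes, threshold 0.05), and the fit was tested on simulated data. Probes were also fitted singly. Alternatives covered scaling, background, filter, probe choice, variance model, slide, replicate number, deposited values and each array left out. Normexp, with an offset of 50, used median spot signals. The rule for named genes took every member, Rb1, and from each gene list the 6 genes with the smallest p and the gene with the largest. Orc1, Gmnn, Pold4, E2f1, Mki67, the marker genes named and the neighbouring genes were chosen after their values were seen. A planned print of protein stretches was not made, since protein sequences were not used here. Some marker genes and one detail of the genotype are not reported here.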

Additional observations from a re-analysis of the deposited data

How the results depend on the processing

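All 170 member differences computed under 17 other settings were positive. These are not separate checks of sign. The filters on dim probes, the variance model and the replicate block left every member difference as reported. Slide as a block and the first slide alone gave the same differences as each other. Against 7 members, 2806 genes in all and 12 partner genes called, the counts without a filter on dim probes were 4, 1491 and 5, with slide as a block 1, 672 and 1, and on the first slide alone 0, 151 and 0. With the replicate number as a block the fit called 4 (5.09% of genes rose), 1661 and 5. Whether same-numbered arrays share a culture or an animal is not stated. Their deviations from the group means correlated at -0.05 to 0.02, and not every array correlated best with its own number. With 3 arrays a group on 2 slides, these values cannot show whether the arrays are paired. Leaving out each array in turn gave 4 to 10 members, 1257 to 5113 genes and 4 to 15 partners. The blocked and first-slide fits have fewer residual degrees of freedom. The cause of the lower counts was not tested, for these fits or for the filter. The other counts stayed within 1.5 times. Single calls of Mcm2 (median scaling), Mcm4 (gained with trend and robust variance) and Mcm2, Mcm6 and Mcm7 (no filter) also crossed the threshold. All member probes were well above background on all 6 arrays; the part of signal in the precision of their values was not tested.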

Other observations

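Some members lie head to head with another gene. Ap4m1, an adaptor complex subunit, starts 138 bases from one of the annotated starts of Mcm7 on the opposite strand, and Ufd1, a factor of protein extraction by the p97 ATPase, starts 322 bases from Cdc45. The level of Ap4m1 was -1.53 ± 0.03 (SD, n = 3) with Rb and -1.57 ± 0.05 (SD, n = 3) without it, and the groups differed by -0.04 ± 0.05 (SE; adjusted p = 0.637 by limma). That of Ufd1 was 2.51 ± 0.05 and 2.55 ± 0.03, and the groups differed by 0.04 ± 0.05 (SE; adjusted p = 0.678). Beside them Mcm7 rose by 0.43 and Cdc45 by 0.52. Whether the neighbours' differences differ from those of the members was not tested.

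E2F-type words were present in a window of 7 of 21 licensing and helicase partner genes, 8 of 24 polymerase and fork genes, 7 of 18 G1/S regulators and 1 of 9 proliferation markers that have a window. Among tested genes with a window they were present for 8.20% of the 1037 that rose and 2.00% of the 1101 that fell.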
